A study of Homo sapiens with 2 samples.

Results

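Mucins are large glycoproteins, densely decorated with O-linked sugars, that form the mucus covering the gut. Gel-forming mucins are secreted from goblet cells, and transmembrane mucins line the apical surface of the epithelium, where they act as a barrier and in signalling. Trefoil peptides are secreted together with mucins, and folding of mucins in the endoplasmic reticulum (ER) needs the protein disulfide isomerase AGR2. The 10 genes described here are the mucins MUC1, MUC2, MUC4, MUC5AC, MUC5B, MUC12, MUC13 and MUC20, the trefoil peptide TFF3 and AGR2. They were chosen by name, with earlier results of these data known. Of these 10, 8 had a named probe set among 17687 named genes, 1 probe set each. The other 2, MUC4 and MUC20, were not analysed here.

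The levels came from 2 whole-transcript microarrays of DLD-1, an established human colorectal adenocarcinoma cell line. One culture had been transfected for 3 days with an siRNA against YY1 (siYY1), a zinc finger transcription factor, and the other with a non-targeting siRNA (siControl), each at 5 nmol/L. A single siRNA against YY1, 1 cell line and 1 array per group were used. No difference below can therefore be set against a replicate error or carries a p-value, and the values compare these arrays rather than the conditions. The level of YY1 itself was not analysed here, so the group names rest on the labels.

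Values are log2 levels after quantile normalization of the pair, and each difference is siYY1 minus siControl on that scale. The scale was inferred from the range of the values. A gene was compared when it encodes a protein and reached 7.50 on at least 1 array, a brightness minimum set at the median of each named gene's higher value. That left 8750 genes, with a median difference of -0.01 and an SD of 0.75 across genes. Apart from this minimum, each gene is set only against itself, since probe sets of different genes can respond differently. A gene that reached the minimum on 1 array only is said to have done so, since the size of its difference is then uncertain. Epithelial markers were bright, with the adhesion molecule EPCAM at 16.47 in siYY1 and 16.29 in siControl and the keratin KRT8 at 16.68 in siYY1 and 16.53 in siControl. The leukocyte marker PTPRC was at 4.98 in siYY1 and 4.96 in siControl, and the endothelial marker PECAM1 was at 4.70 in siYY1 and 4.54 in siControl. In the list of fibroblast, endothelial and leukocyte markers, 9 of 11 named genes were below the minimum on both arrays. The collagen gene COL1A2 was above it on both, at 8.84 in siYY1 and 8.62 in siControl. The leukocyte marker CD14 reached it only in siControl, at 6.95 in siYY1 and 7.67 in siControl.

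Of the 8 genes with a probe set, 2 were bright enough to be compared, the transmembrane mucin MUC13 and the ER protein AGR2, and they differed in opposite directions. MUC13 was 6.21-fold lower in the siYY1 array and AGR2 was 2.10-fold higher. The other 6 lay below the brightness minimum on both arrays, and their differences ran from -0.49 to 0.89. At 2-fold, 1 member was therefore higher and 1 lower among the 2 compared. Of all genes compared, 7.92% were higher in siYY1 by 2-fold or more and 9.38% were lower by as much. With 2 members compared, these counts say little about the group, and the median difference of the 2, -0.78, lies between values of opposite sign.

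**Figure D1:**
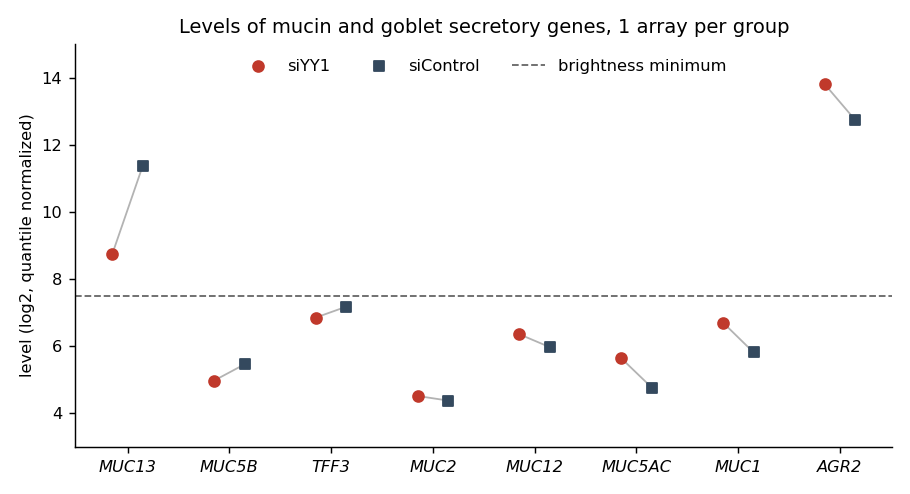
Level of each gene (log2, quantile normalized) in the siYY1 array (circles) and the siControl array (squares), 1 array per group, ordered by the difference; the dashed line marks the brightness minimum of 7.50. Only MUC13 and AGR2 lie above the line, and MUC13 has the widest gap between the arrays.

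MUC13 encodes a transmembrane mucin of the intestinal surface with epidermal growth factor-like domains. It was at 8.74 in siYY1, against 11.38 in siControl, a difference of -2.63. In the deposited values without further scaling it was at 8.69 in siYY1 and 11.45 in siControl, a difference of -2.76. Both values were above the brightness minimum, so the lower one was not among the dim genes. MUC13 had the 11th lowest difference of the 8750 genes. The genes next to it in that order were TRIAP1 at -2.69 and ZNF664 at -2.64 on one side, and TTC31 at -2.61 and UTP14A at -2.59 on the other. TRIAP1 and TTC31 reached the brightness minimum only in siControl. This likeness rests on 1 difference between 2 arrays. In RNA from a whole culture, fewer cells expressing a gene and less of its RNA per cell cannot be told apart.

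AGR2 encodes a disulfide isomerase of the ER that assists the folding of secreted mucins. It was at 13.80 in siYY1, against 12.73 in siControl, a difference of 1.07. Of the genes compared, 6.51% had a higher difference, so AGR2 lay nearer the bulk of the genes than MUC13. Its neighbours in the order of the difference were JAG2 and ANKS6, both just below it at 1.07, and ISM1 and PATJ, both just above it at 1.07. ISM1 reached the brightness minimum only in siYY1. The call at 2-fold was lost in the deposited values, where AGR2 was at 13.72 in siYY1 and 12.80 in siControl, a difference of 0.92, and with median centring, where it was 0.85. Those scalings moved the median of all genes compared to -0.13 and -0.20. Relative to that median, AGR2 was at 1.08 after quantile normalization, 1.05 as deposited and 1.05 with median centring.

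**Figure D2:**
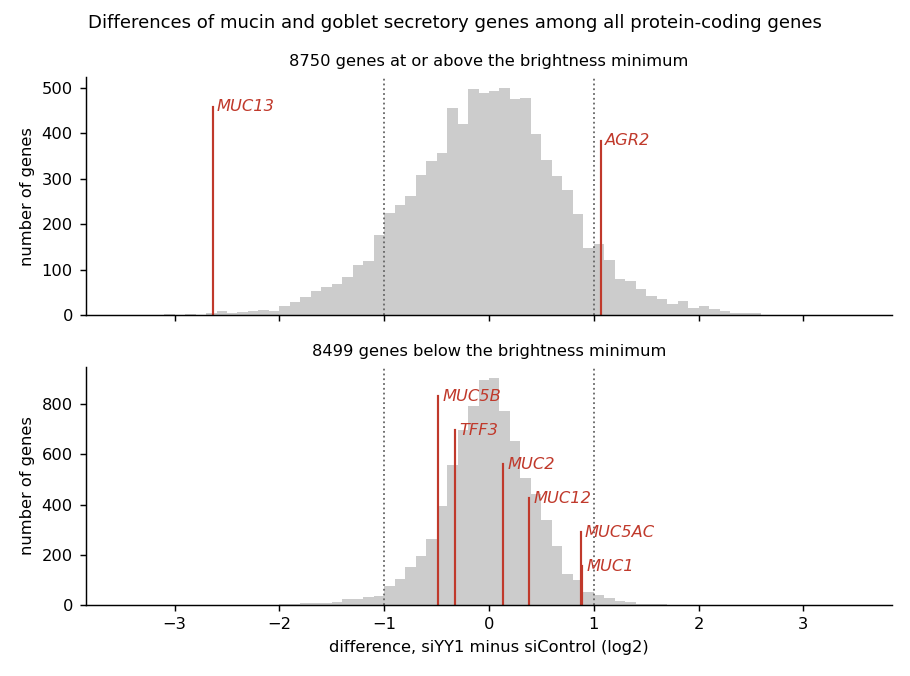
Number of protein-coding genes by difference (siYY1 minus siControl, log2) among 8750 genes at or above the brightness minimum (top) and 8499 below it (bottom), with the members drawn as lines whose height carries no value. MUC13 stands at the low edge of the top panel, AGR2 just past the dotted 2-fold line, and the 6 dim members lie within the 2-fold lines.

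The other transmembrane mucins among the members with a probe set were dim. MUC1, which is cleaved into an extracellular mucin and a signalling tail, was at 6.70 in siYY1 and 5.82 in siControl, a difference of 0.89. MUC12, a membrane-bound mucin of the colon, was at 6.35 in siYY1 and 5.97 in siControl, a difference of 0.39. Both differences were positive, opposite in sign to that of MUC13, and neither passed 2-fold.

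The 3 gel-forming mucins among the members were dim too. MUC2, the main mucin of colonic goblet cells, was at 4.52 in siYY1 and 4.38 in siControl, a difference of 0.14. MUC5AC, best known from the stomach surface and the airways, was at 5.64 in siYY1 and 4.77 in siControl, a difference of 0.87. MUC5B, a gel-forming mucin of the airways and salivary glands, was at 4.97 in siYY1 and 5.46 in siControl, a difference of -0.49. These genes lay on both sides of 0. TFF3, the trefoil peptide of intestinal goblet cells, was the closest of the dim members to the minimum, at 6.85 in siYY1 and 7.18 in siControl, a difference of -0.32.

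The 6 dim differences can be read against the 8499 protein-coding genes that also lay below the minimum. Their differences had an SD of 0.44, and 3.06% of them were at least 2-fold apart either way. A difference at least as far from 0 as that of MUC1 was found in 4.81% of those genes, and one as far as that of MUC5AC in 5.18%. For MUC2 the same share was 71.9%, and for TFF3, MUC12 and MUC5B it was 41.1%, 33.7% and 23.5%. In the deposited values MUC1 was at 1.01 and MUC5AC at 1.05, past 2-fold, though still below the brightness minimum. The set is named for goblet cells, and several genes used to define such cells were below the minimum on both arrays. Apart from MUC2, these included the goblet cell transcription factors ATOH1, at 3.35 in siYY1 and 3.65 in siControl, and SPDEF, at 4.18 in siYY1 and 4.88 in siControl. The mucus proteins FCGBP, CLCA1, ZG16 and SPINK4 lay between 4.15 and 4.54 in siYY1 and between 4.15 and 4.88 in siControl. Other genes of the secretory lineages were above the minimum on both arrays, among them AGR2, TFF1 and the transcription factor GFI1, which was at 9.99 in siYY1 and 9.47 in siControl. In the list of goblet and intestinal lineage factors, 9 of 18 named genes reached the minimum.

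Proximal promoter sequences are shown for the 2 members that passed 2-fold and for MUC12, the only member whose window held the longer YY1 motif searched. They run from 250 bases before to 50 bases after the gene start, on the minus strand of GRCh38.p14 for MUC13 (chr3:124934702-124935001) and AGR2 (chr7:16804950-16805249) and on the plus strand for MUC12 (chr7:100969315-100969614), as given by RefSeq. RefSeq windows were found for 5 members. Capitals mark matches to GCCAT and CCATNTT (the core of the YY1 motif), TTTATNG (the motif of CDX factors, intestinal homeobox regulators) and TATAAA (the TATA box), on either strand. FOXA (TGTTTAC) and XBP1 (GACGTG) motifs were also searched.
MUC13: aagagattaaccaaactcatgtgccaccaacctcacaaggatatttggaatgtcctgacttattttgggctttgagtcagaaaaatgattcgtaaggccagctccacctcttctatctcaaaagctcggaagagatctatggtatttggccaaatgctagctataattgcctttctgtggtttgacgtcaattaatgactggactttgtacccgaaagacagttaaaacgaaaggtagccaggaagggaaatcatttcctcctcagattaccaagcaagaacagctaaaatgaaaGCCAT
AGR2: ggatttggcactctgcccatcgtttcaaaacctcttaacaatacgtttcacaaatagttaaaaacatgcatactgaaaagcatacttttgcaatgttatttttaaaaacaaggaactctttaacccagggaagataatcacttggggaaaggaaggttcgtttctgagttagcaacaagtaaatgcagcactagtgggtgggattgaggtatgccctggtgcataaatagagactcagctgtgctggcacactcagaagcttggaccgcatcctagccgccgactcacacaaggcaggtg
MUC12: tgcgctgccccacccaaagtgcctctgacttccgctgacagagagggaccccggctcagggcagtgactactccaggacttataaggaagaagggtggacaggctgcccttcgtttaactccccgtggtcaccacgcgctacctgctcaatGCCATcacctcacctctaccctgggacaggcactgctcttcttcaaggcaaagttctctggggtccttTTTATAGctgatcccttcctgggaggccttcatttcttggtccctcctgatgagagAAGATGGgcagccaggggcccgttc

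The MUC13 window held 1 of these motifs, GCCAT, which starts 45 bases after the gene start. GCCAT was found in 37.8% of 35097 RefSeq promoters of the same length, so its presence is common. None of the 6 motifs was in the AGR2 window, which says only that these letters are absent there. The MUC12 window held CCATNTT on the reverse strand, a motif found in 15.6% of promoters, together with GCCAT and a TTTATNG match that overlaps a reverse-strand TATAAA. The CDX motif was found in 9.74% of promoters and TATAAA in 11.5%. The MUC2 window held GCCAT, overlapping a reverse-strand CDX match, and the MUC1 windows held only a TATA box. Promoters of the bright members were poor in G and C, at 41.0% for MUC13 and 43.7% for AGR2, against a median of 58.7% over all promoters. The windows of MUC1, MUC2 and MUC12 were at 65.7%, 62.0% and 57.7%. Across the genes compared, 3454 had GCCAT in a RefSeq window and a median difference of -0.05, and 3933 had none and a median of 0.00. At least 2-fold lower were 10.4% of the genes with GCCAT and 9.08% of those without, and at least 2-fold higher 6.86% and 8.21%. For CCATNTT the medians were -0.03 with the motif and -0.02 without. Lower by 2-fold or more were 10.5% of the genes with CCATNTT and 9.48% of those without, and higher 7.15% and 7.70%. No binding of YY1 was measured.

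Several members lie beside other mucin or secretory genes on the chromosome, and the differences of such neighbours were not alike. These neighbours were chosen by position, after values of the members were known. Next to MUC13 on chromosome 3 lies HEG1, which encodes another heavily glycosylated transmembrane protein. HEG1 was at 8.76 in siYY1 and 6.94 in siControl, a difference of 1.82 and opposite in sign to that of MUC13. Since HEG1 reached the brightness minimum only in siYY1, the size of its difference is uncertain. On the other side, the integrin subunit gene ITGB5 was at 0.49 and UMPS, an enzyme of pyrimidine synthesis, at 0.25. SLC12A8, beyond HEG1, was at -0.87. No neighbour of MUC13 up to 3 places away was at least 2-fold lower.

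AGR2 is followed by its paralog AGR3, which was dim at 3.29 in siYY1 and 3.26 in siControl. The bright genes around AGR2 were all within 2-fold, from ANKMY2 at -0.73 to the aryl hydrocarbon receptor gene AHR at 0.38. On chromosome 11, MUC6, MUC2, MUC5AC and MUC5B form 1 cluster of gel-forming mucins. MUC6, the mucin of gastric glands, was at 5.12 in siYY1 and 3.88 in siControl, a difference of 1.24 at a level below the brightness minimum. Within the cluster the differences were thus 1.24, 0.14, 0.87 and -0.49 in the order of the genes. TOLLIP, which follows MUC5B and was bright, was at -0.07. Around MUC12 on chromosome 7, MUC3A was at 0.06 and MUC17 at 0.16, both dim. The trefoil genes next to TFF3 on chromosome 21 were TFF2, dim at -0.47, and TFF1, which was bright enough to be compared. TFF1 was at 8.43 in siYY1 and 7.83 in siControl, a difference of 0.60.

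**Figure D3:**
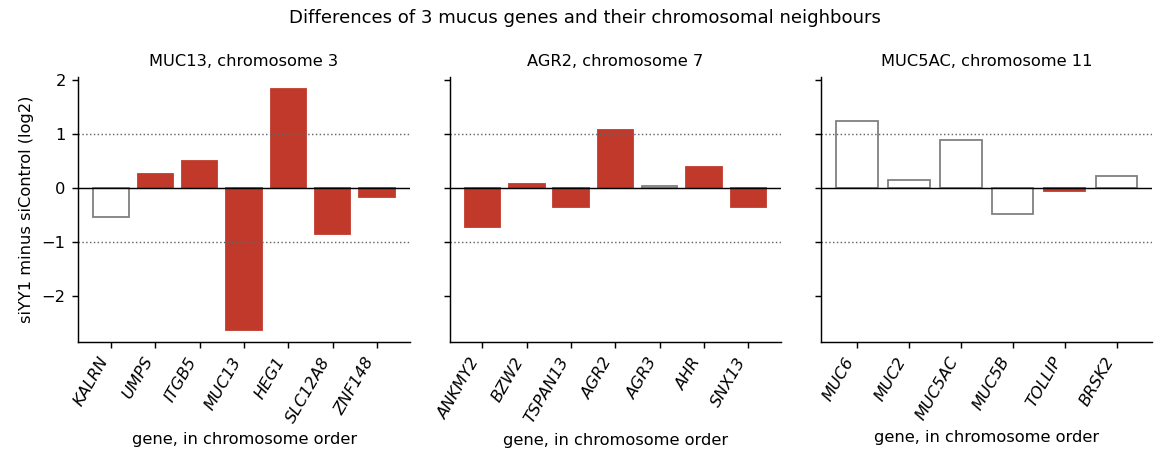
Difference (siYY1 minus siControl, log2) of MUC13, AGR2 and MUC5AC and of the named protein-coding genes up to 3 places on either side, in chromosome order; filled bars are genes that reached the brightness minimum on at least 1 array and open bars are dimmer genes. MUC13 at -2.63 stands beside HEG1 at 1.82, which was below the minimum in siControl, and AGR2 at 1.07 is the only gene of its group past the dotted 2-fold line.

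Genes of the steps that make, fold, glycosylate, release and bind mucins were listed in 8 groups, written with earlier results of these data known. The groups held 161 named genes, of which 78 were bright enough to be compared. Past 2-fold, 3 of the 78 were higher in siYY1 and 11 were lower, with a median difference of -0.04 against -0.01 for all genes compared. As shares these are 3.85% and 14.1%, beside the 7.92% and 9.38% given above. Of the 11, SERPINA1 and FUT2 reached the brightness minimum only in siControl, and the other 9 on both arrays. In the deposited values the 11 became 16, and with median centring 18, while the count of higher genes stayed at 3. Over all genes compared, those scalings put 12.2% and 14.3% at least 2-fold lower, against the 9.38% above. The lower share thus moved for the genes at large too, and that of the 8 groups stayed above it. Whether the groups moved further than the genes at large was not tested. The share of all genes at least 2-fold higher fell to 6.13% and 5.03%, from 7.92%, so the 3 higher genes then lay nearer that share.

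In the group of other mucins and mucin-like genes, 11 of 13 were dim. The sialomucin CD164, which acts in cell adhesion, was at 13.18 in siYY1 and 13.80 in siControl, a difference of -0.62. Podocalyxin (PODXL), a sialomucin of the apical surface, was at 11.90 in siYY1 and 11.25 in siControl, a difference of 0.64. Of all 15 genes named MUC followed by a number, MUC13 was the only one bright enough to be compared.

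Of 23 granule and mucus layer genes, 21 were dim. SERPINA1, which encodes the protease inhibitor alpha-1 antitrypsin, was at 6.26 in siYY1 and 7.83 in siControl, a difference of -1.57. It reached the brightness minimum only in siControl, so the size of this difference is uncertain, and with the 75th percentile as minimum it was not compared. REG4, a secreted lectin of enteroendocrine and goblet-like cells, was at 3.73 in siYY1 and 6.71 in siControl, a difference of -2.99. Since both values of REG4 lie below the brightness minimum, it is not counted among the compared genes.

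Most genes that act on protein folding in the ER lay below 0, while AGR2 lay above it. Of 16 ER folding genes compared, 11 were below 0, or 68.8%, against 50.4% of all genes compared. Past 2-fold, 2 were lower, or 12.5%, beside 9.38% of all genes, and none was higher, beside 7.92%. Their median was -0.26, beside -0.01 for all genes compared. It was -0.38 as deposited, -0.45 with median centring and -0.24 with loess on brightness. The median of all genes compared was then -0.13, -0.20 and -0.03, so it too was below 0 under each of these scalings. ERP29, an ER chaperone related to the disulfide isomerases, was at 8.96 in siYY1 and 10.18 in siControl, a difference of -1.22. TXNDC5, a disulfide isomerase, was at 11.99 in siYY1 and 13.10 in siControl, a difference of -1.11. The isomerases P4HB and PDIA3 were at -0.92 and -0.90, short of 2-fold, and at -1.08 and -1.06 in the deposited values. The count of lower genes was thus 4 as deposited, and 5 with median centring. Under those scalings 12.2% and 14.3% of all genes compared were at least 2-fold lower. Among the 8 compared genes of the isomerase family, singled out after their values were seen, 6 were below 0, with a median of -0.74. ERP44, which retains client proteins in the early secretory pathway, was at 0.41, and the ER cochaperone DNAJB9 at 0.91. The unfolded protein response genes were on both sides: XBP1, a transcription factor of secretory cells, was at 0.16, its activating nuclease ERN1 at 0.47, and ERN2, the form of that nuclease found in mucous epithelia, at -0.53. ERN2 reached the brightness minimum only in siControl.

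Mucin-type O-glycosylation starts with the GALNT transferases, which add the first sugar, and C1GALT1, which extends it to the core 1 structure. In the group listed for this process, which also held fucosyltransferases and sialyltransferases, 16 genes were compared, 8 of them of the GALNT family. Of the 16, 4 were lower by 2-fold or more, beside 9.38% of all genes, and none was higher by as much, beside 7.92%. The median was 0.02. The lower count was 3 with loess on brightness, 3 with normalization over named probe sets only, and 2 with the 75th percentile as minimum. C1GALT1 was at 8.57 in siYY1 and 10.04 in siControl, a difference of -1.47. FUT2, the fucosyltransferase that makes secretor blood group antigens on mucus, was at 7.46 in siYY1 and 8.62 in siControl, a difference of -1.16, and reached the brightness minimum only in siControl. GALNT1 was at 9.80 in siYY1 and 10.86 in siControl, a difference of -1.05. GALNT3 was at 11.97 in siYY1 and 12.98 in siControl, a difference of -1.01. These values did not extend to the GALNT family as a whole, since 5 of its 8 compared genes were above 0, among them GALNT7 at 0.69. GCNT3, which branches core structures in mucus-secreting tissue, was dim, with a difference of -1.04. The sign of the median of this group changed with the scaling, to -0.11 as deposited and -0.18 with median centring. The median of all genes compared was at -0.13 and -0.20 under those scalings. With the 75th percentile as minimum the group's median was -0.41, from a smaller set.

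Among 14 compared genes of mucin granule exocytosis, 3 were past 2-fold on the lower side and 1 on the higher side. As shares these are 21.4% and 7.14%, beside 9.38% and 7.92% of all genes compared. As deposited and with median centring 4 were on the lower side, beside 12.2% and 14.3% of all genes compared. With the 75th percentile as minimum 2 were on the lower side. At 3-fold the count was 0 on both sides. SNAP23, a membrane fusion protein, was at 10.78 in siYY1 and 12.12 in siControl, a difference of -1.34. NSF, the ATPase that recycles fusion complexes, was at 10.33 in siYY1 and 11.63 in siControl, a difference of -1.30. UNC13B, which primes vesicles for fusion, differed by -1.03. RAB3B, a small GTPase of regulated secretion, was higher, at 11.78 in siYY1 and 10.23 in siControl, a difference of 1.56. VAMP8, a vesicle protein of mucin release, was at 0.43. The median of this group, 0.14, was -0.01 as deposited and -0.11 with median centring, so its sign depended on the scaling. Those scalings also moved the median of all genes compared, to -0.13 and -0.20.

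**Figure D4:**
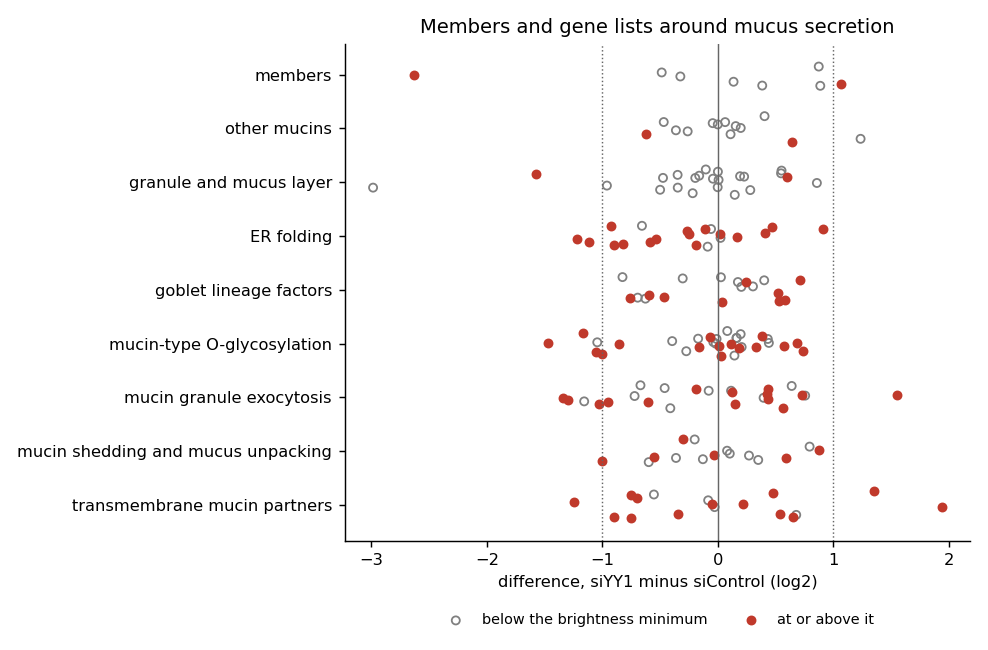
Difference (siYY1 minus siControl, log2) of each named gene in the set and in 8 groups of mucus-related genes, 1 point per gene with random vertical offset; filled points reached the brightness minimum on at least 1 array and open points on none. MUC13 lies further below 0 than any filled point of the other groups, and only REG4, an open point, lies lower.

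No gene of the group for mucin shedding and unpacking passed 2-fold among 6 compared. The metalloprotease ADAM9 was the farthest from 0, at 11.84 in siYY1 and 12.84 in siControl. Its difference was just short of 2-fold, and past it as deposited. ADAM17, which can shed transmembrane mucins, was at -0.03. CFTR, the chloride channel that supplies fluid and bicarbonate to mucus, was at 0.59.

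Transmembrane mucins act with receptor kinases and junction proteins, and 13 genes of this group were compared. Of these, 2 were past 2-fold on the higher side and 1 on the lower side. The lower share, 7.69%, was near the 9.38% of all genes compared. The higher share was 15.4%, beside 7.92%, and rests on 2 genes. As deposited and with median centring 2 were on the lower side, beside 12.2% and 14.3% of all genes compared. With the 75th percentile as minimum 1 was on the higher side. SOS1, an activator of RAS downstream of receptor kinases, was at 13.19 in siYY1 and 11.25 in siControl, a difference of 1.94. EGFR, the epidermal growth factor receptor, was at 10.31 in siYY1 and 8.95 in siControl, a difference of 1.36. JUP, the junction protein plakoglobin, was at 11.87 in siYY1 and 13.11 in siControl, a difference of -1.24. CTNNB1, the junction protein and Wnt effector beta-catenin, was at -0.90, and at -1.08 as deposited. The mucin-binding lectin LGALS3 was at -0.75.

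Transcription factors of the goblet and intestinal lineage lay within 2-fold in all 9 cases compared. CDX2, an intestinal homeobox factor, was the farthest from 0, at 12.31 in siYY1 and 13.07 in siControl, a difference of -0.76. The Notch target HES1 was at 0.53, GATA6 at 0.71, and FOXA1 was at 0.04.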

How the data were processed

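Expression in 2 DLD-1 cultures was measured on GeneChip arrays with biotin-labelled sense cDNA, per the labels' protocols. For each probe set and array there was 1 value deposited by the authors, taken here as log2 from its range. Not given in the sources used here were the software, background correction and normalization of these deposited log2 values. Groups came from the sample titles. Because the 25th, 50th or 75th percentiles of the arrays differed by more than 0.05, all 21448 probe sets were quantile normalized. A platform annotation named 17709 probe sets, and symbols were updated by gene ID to RefSeq (GRCh38.p14). Probe sets of 1 gene were averaged. Protein-coding genes at or above the median brightness were compared at 2-fold, with no test. The number of arrays limits the precision.

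The members and the gene lists were chosen with earlier results of these data known. All members were named. From each list, up to 4 genes past 2-fold were named, or the one farthest from 0, with the 2 genes next to MUC13 and AGR2 on either side in the order of the difference and up to 3 of the brightest genes of each marker list. Other genes were chosen after their values were seen. Alternatives were the values as deposited, median centring, loess on brightness (fraction 0.3), the brightest probe set, no brightness minimum or the 75th percentile, thresholds of 1.5-fold and 3-fold, and normalization over named probe sets only. The computation was tested on simulated data. Python 3.11.15, numpy 2.4.6, pandas 2.3.3, statsmodels 0.14.6 and matplotlib 3.10.9 were used.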

Additional observations from a re-analysis of the deposited data

How the results depend on the processing

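The sign of each of the 8 member differences was kept under the 4 alternatives that can change it, which are the deposited values, median centring, loess and normalization over named probe sets. The brightness minimum and the choice of probe set cannot, since each member has 1 probe set. MUC13 ran from -2.83 to -2.61 and AGR2 from 0.85 to 1.07. The count of members at least 2-fold higher, 1 in the values as reported, was 0 as deposited, 0 with median centring and 0 at 3-fold, since AGR2 is close to 2-fold. The median of the members became 0.26 without a brightness minimum, over 8 members instead of 2. Among the mucus-related genes, 3 were higher and 11 lower. With median centring 18 were lower, and with the 75th percentile as minimum 6 were, from a smaller set. At 1.5-fold 13 were higher and 26 lower, and at 3-fold 1 and 0. Shares of all genes were not computed at those thresholds or with the 75th percentile as minimum. Those counts therefore have no background beside them. Over all genes compared, 693 were higher and 821 lower (45.8% higher), against 536 and 1068 (33.4%) as deposited and 440 and 1251 (26.0%) with median centring. Under the alternatives tried, each member's difference stayed within 0.38 of the reported one. That is the median distance between the differences of probe sets of 1 gene. It rests on the 20 genes with more than 1 probe set, none of them a member, and the largest distance was 0.98. No paired analysis was possible because each group had 1 array. Without replicates, no difference could be set against the spread between cultures.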

Other observations

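Markers of other intestinal lineages were mostly dim too. Among 19 named enterocyte markers, 17 were below the brightness minimum, and the side of 0 on which the 19 lay depended on the scaling, with 15 below 0 and a median of -0.17 after quantile normalization, and 11 below 0 and a median of -0.01 as deposited. The intestinal alkaline phosphatase gene ALPI, dim on both arrays, was at 3.74 in siYY1 and 4.94 in siControl, a difference of -1.20. The microvillus protein gene VIL1, which reached the minimum only in siControl, was at 7.03 in siYY1 and 7.54 in siControl. APOA4, the brightest of these markers and above the minimum on both arrays, went the other way. It was at 9.14 in siYY1 and 8.45 in siControl, a difference of 0.69. All 11 enteroendocrine markers and all 10 Paneth and tuft cell markers with a name were dim, and none was 2-fold apart.

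Of 9 named stem and progenitor markers, 6 reached the brightness minimum. LGR5, a receptor that marks intestinal stem cells, was at 12.81 in siYY1 and 12.68 in siControl, a difference of 0.13. AXIN2, a target of Wnt signalling, was at 13.72 in siYY1 and 14.18 in siControl, a difference of -0.47, and RNF43, which restrains Wnt receptors, was at 0.14. None of the 6 passed 2-fold, with a median of -0.09. Epithelial markers were within 2-fold in all 11 cases, from CLDN4 at -0.94 to ESRP1 at 0.81, though CLDN4 was at -1.11 as deposited. In the list of fibroblast, endothelial and leukocyte markers, levels ran from 3.86 to 8.84 in siYY1 and from 3.72 to 8.62 in siControl, and the brightest was the collagen gene COL1A2, with a difference of 0.21. Gastric markers other than TFF1 were dim.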
